A study of Homo sapiens with 24 samples.

Results

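The genes described here encode the subunits of RNA polymerases I, II and III and of the Mediator complex, followed over 46 h in synchronized K562 cells. A gene was taken as a member if it was in the expression table, was protein-coding in GENCODE 29, and had a name or current symbol beginning with POLR1, POLR2, POLR3 or with MED and a number. There were 61 members among 12285 genes, of which 8 belonged to polymerase I, 14 to polymerase II, 10 to polymerase III and 29 to Mediator. The current symbols of POLR1F, POLR1G and POLR1H brought in 3 members that GENCODE 29 lists under other names. MED12L and POLR2J2 had no value in the table and were not analysed here.

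K562 is an established human leukaemia line with erythroid features. The cells were grown in RPMI with 10% bovine calf serum and P/S, and populations of like cell size, and so of like cell cycle stage, were collected by centrifugal elutriation. Cells were then frozen at 24 time points, every 2 h from 0 h to 46 h, and total RNA was sequenced. Every time point was 1 library from 1 culture condition, so time was the only variable and there was no untreated or control group. With 1 library per time point, no difference between time points could be tested against replicate error, and such differences are given beside the same measure at other time points and in all genes.

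RNA polymerase I makes the large ribosomal RNA precursor, polymerase II makes messenger RNA and polymerase III makes transfer RNA and other short RNAs. The enzymes share a set of small subunits, and each has a pair of large subunits of its own that form the active centre. Mediator is an assembly of head, middle, tail and kinase modules that relays signals from DNA-bound activators to polymerase II, with MED14 as the backbone that holds its modules together.

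All 11 K562 and erythroid markers were in the table, among them HBG2, a fetal globin gene, at a mean of 2225 FPKM. Of 5 lymphoid markers 3 were present, with CD3D at 7.05 and PTPRC at 28.2 FPKM, and of 5 fibroblast markers 1 was present, COL1A2 at 2.93 FPKM. FPKM counts fragments relative to transcript length and to the size of the library, here as scaled in Cuffnorm. Levels can therefore be compared between genes per length. FPKM values summed to 566247 and 591309 in the libraries of 16 h and 18 h, and to between 456791 and 520382 in the other 22. The study names these time points, and more mildly 32 h, as technically irregular. Members added up to between 0.433% and 0.505% of the summed FPKM of a library. Read totals were not given, so the counting error of a value is unknown. In bulk RNA, fewer cells of a kind and less RNA per cell cannot be told apart.

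Promoter windows were available for 44 members in RefSeq (GRCh38.p14), and the 250 bases before the start were searched on both strands for short motifs written as plain letters. The letters CCGGAAGT, the core bound by ETS factors, were in 8 member windows (18.2%), against 5.08% of 15842 windows of protein-coding genes and 3.64% of all 27305 windows. The 8 were POLR1C, POLR2C, POLR2F, POLR3A, MED7, MED15, MED17 and MED18, spread over all of the complexes. CGCATGCG, the core of the palindrome bound by NRF1, was in the windows of POLR2F and MED18 (4.55% against 2.49% of protein-coding genes). CACGTG, the E-box bound by MYC and related factors, was in 4 (9.09% against 7.84%), TATAAA in 3 (6.82% against 9.23%), CCAAT in 12 (27.3% against 34.5%) and the YY1 letters AAGATGGC in 2 (4.55% against 1.39%). These are matches of letters, not measured binding. The backgrounds include windows of genes that are not in the expression table, while all members are in it. No share was taken over the windows of expressed genes alone. The last 150 bases before the start are shown for a member of polymerase II and one of polymerase III that hold more than 1 of the motifs, for the Mediator head subunit MED17, and for POLR2A, whose window held none. Capitals mark the motif letters, on either strand, and each run reads 5′ to 3′ in the direction of the gene.
POLR2F (chr22:37953549-37953698, plus strand): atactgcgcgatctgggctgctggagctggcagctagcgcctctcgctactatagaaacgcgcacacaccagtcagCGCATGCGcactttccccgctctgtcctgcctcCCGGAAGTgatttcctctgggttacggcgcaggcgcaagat
POLR3A (chr10:78029516-78029665, minus strand): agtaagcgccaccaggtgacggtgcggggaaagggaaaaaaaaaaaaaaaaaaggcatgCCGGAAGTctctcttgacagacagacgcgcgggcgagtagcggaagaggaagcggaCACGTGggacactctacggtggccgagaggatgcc
MED17 (chr11:93784132-93784281, plus strand): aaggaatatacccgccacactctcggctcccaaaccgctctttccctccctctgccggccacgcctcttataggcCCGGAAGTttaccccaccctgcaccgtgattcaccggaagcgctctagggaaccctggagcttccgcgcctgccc
POLR2A (chr17:7484216-7484365, plus strand): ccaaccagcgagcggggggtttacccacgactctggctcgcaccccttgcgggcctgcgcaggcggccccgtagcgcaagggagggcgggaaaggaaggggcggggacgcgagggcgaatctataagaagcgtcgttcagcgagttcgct

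Members were expressed at every time point. All 61 averaged 1 FPKM or more and none was at 0 in any library. This was near the rule for the table, which kept genes with at least 1 FPKM in at least 12 time points. Of its 12285 genes, 12253 averaged 1 FPKM or more, and 115 were at 0 at 18 h, the most of any library. The median of the members' mean levels was 67.2 FPKM in polymerase II, 41.5 in polymerase I, 25.2 in polymerase III and 18.9 in Mediator, against 13.8 over the 12253 genes that averaged 1 FPKM or more. The highest levels were those of small polymerase II subunits that polymerases I and III also use: POLR2L at a mean of 137 FPKM, POLR2H at 123 and POLR2E at 106. The highest in polymerase I was POLR1D, shared with polymerase III, at 77.6 FPKM, and the lowest was POLR1G, part of its initiation heterodimer, at 23.2. In polymerase III, POLR3K, a small subunit for RNA cleavage, stood highest at 60.2 FPKM and POLR3F, of its initiation subcomplex, lowest at 9.19. In Mediator the range ran from MED24 of the tail at 87.8 FPKM to MED26, which contacts elongation factors, at 6.80. POLR2J3 was the lowest of all members at 2.57 FPKM. POLR2J and POLR2J3 are near-identical copies, and how reads were split between them is uncertain. POLR2K has a pseudogene copy in the table, POLR2KP1, with the same limit.

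The catalytic subunits differed in level. POLR2B had a lowest, median and highest level of 73.5, 87.9 and 144 FPKM over the 24 time points, and POLR2A 31.9, 43.1 and 209. In polymerase I the figures were 20.5, 25.3 and 55.2 for POLR1A and 20.2, 32.4 and 39.0 for POLR1B. Polymerase III was lower, with 14.5, 18.2 and 20.8 for POLR3A and 7.32, 10.6 and 24.9 for POLR3B. The ranges of POLR3A and POLR2A therefore did not overlap, while those of POLR1A and POLR1B did. Of the paralogues POLR3G and POLR3GL, alternative subunits of polymerase III, POLR3G was higher, with 26.3, 37.5 and 93.4 FPKM against 18.4, 20.7 and 29.6.

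Leaving out 16 h and 18 h, members varied little over time. Their median coefficient of variation over the 22 remaining libraries was 11%, against 14.2% over all genes and 13.2% over protein-coding genes. Members were also higher in level, with a median of their means of 27.1 FPKM, against 17.5 over protein-coding genes. The part of level in this difference was not tested. MED1, which contacts nuclear receptors, varied least (5.07%), and POLR1A (34.0%), POLR1G (24.9%) and MED30 (23.9%) varied most. In the plot of members by time point, 16 h and 18 h form dark columns in which some members are high and others low.

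**Figure D1:**
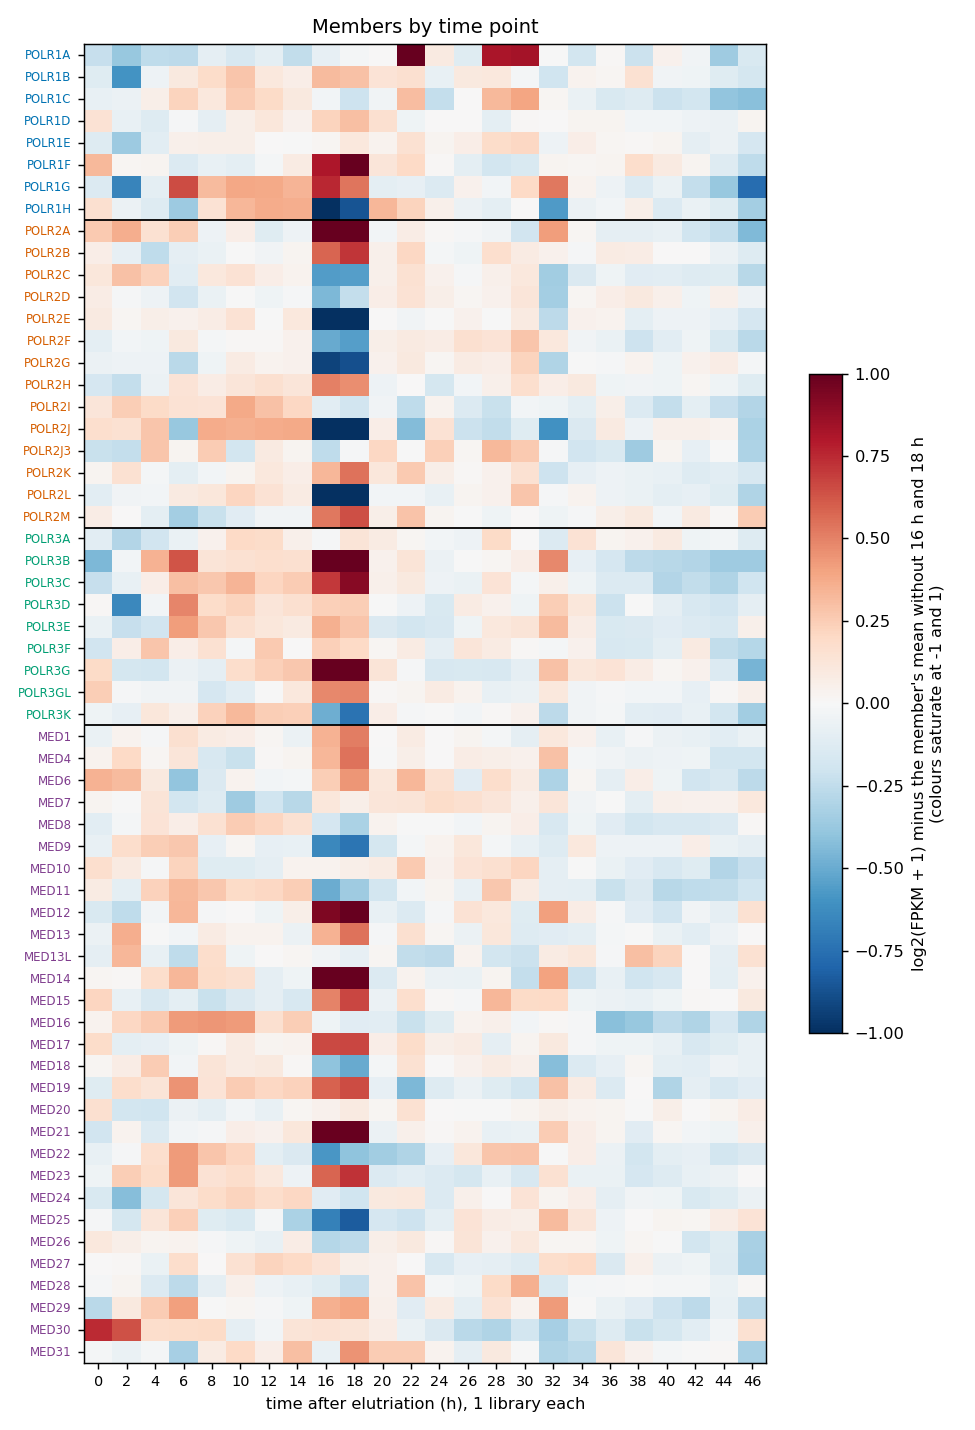
Each row is a member (1 is not shown) and each column a library. Colour gives log2(FPKM + 1) minus the member's mean over the 22 time points without 16 h and 18 h, and rows are grouped as polymerase I (blue names), polymerase II (orange), polymerase III (green) and Mediator (purple). POLR2A and MED14 are above their mean at 16 h and 18 h, POLR2J and POLR2L are below, and POLR1A stands out at 22, 28 and 30 h.

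At 16 h and 18 h each complex held members that deviated upwards and members that deviated downwards. The deviation of a gene was taken as its mean log2(FPKM + 1) at 16 h and 18 h minus its mean at 14 h and 20 h. The same measure at 16 other consecutive pairs of time points served as the reference range. The median deviation was -0.31 in polymerase II, 0.12 in polymerase I, 0.28 in polymerase III and 0.033 in Mediator, against 0.14 over all genes. Beside the spread of the same medians over the reference pairs, polymerase II (-0.13 to 0.15) and polymerase III (-0.085 to 0.084) lay outside it, and polymerase I (-0.12 to 0.14) and Mediator (-0.031 to 0.044) within it. The median of all genes also lay outside its own spread (-0.046 to 0.031), so lying outside was not particular to these complexes. Centring each library on its median took the all-gene median to 0.024 and upper-quartile scaling to -0.063. The Mediator median was then negative under both (-0.080 and -0.18) and that of polymerase I under the latter (-0.11), while polymerase II stayed negative. Polymerase III was at 0.16 when centred and at 0.055 under upper-quartile scaling, the latter inside the reference spread found without that scaling.

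By the 2-fold rule 5 of 61 members were above and 4 below, where 8.95% of all genes were above and 7.11% below. At 1.5-fold 12 were above and 8 below, against backgrounds of 23.9% and 16.8%. Counted against the reference pairs, 24 members lay above all 16 pairs and 20 below, against 43.6% and 28.0% of all genes. Both shares of members were near the background.

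**Figure D2:**
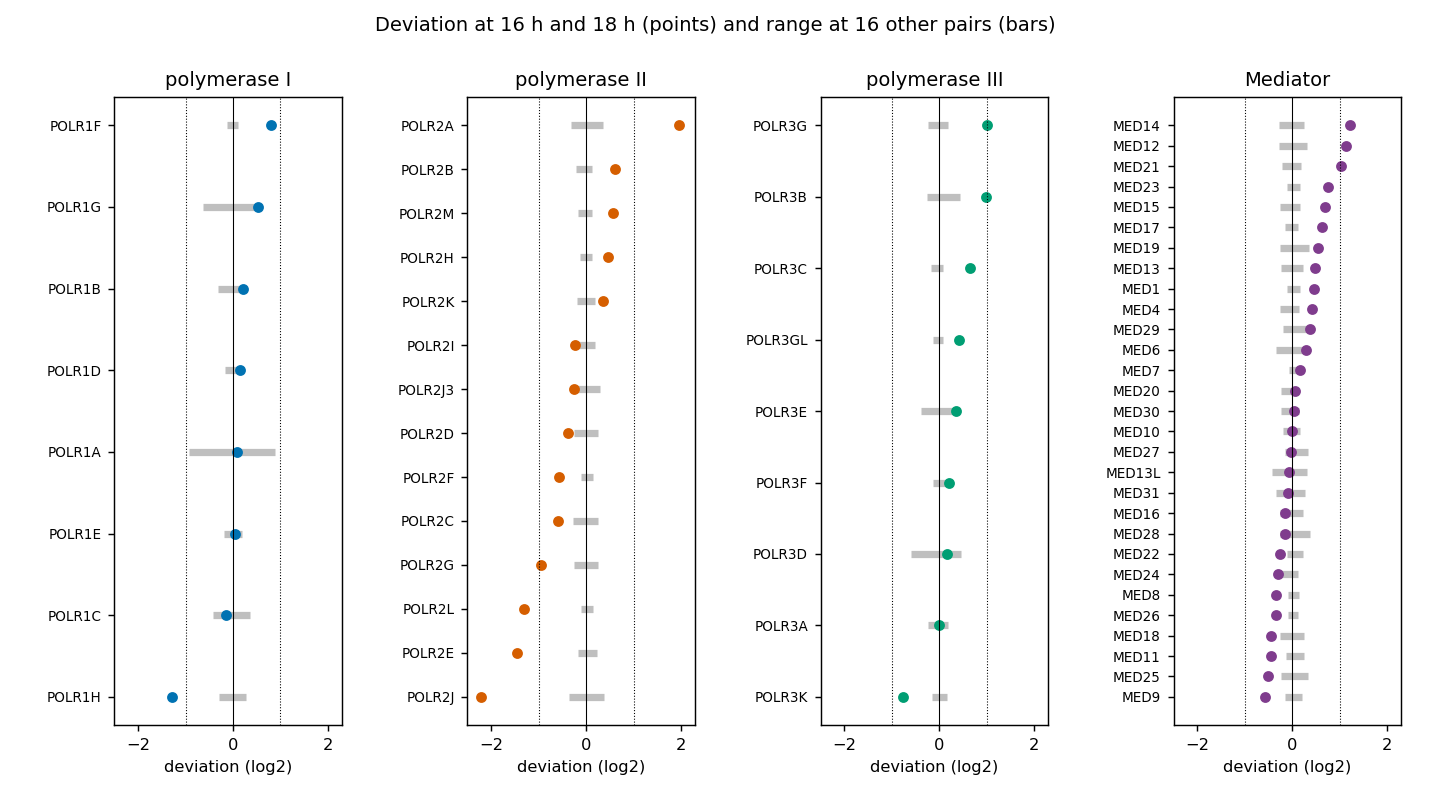
Points give the deviation of each member shown at 16 h and 18 h in log2 units, and grey bars its range at 16 other pairs of time points. Dotted lines mark 2-fold. No polymerase II member lies within its bar, 9 are below and 5 above, where 3484 of 12253 genes lie within their range.

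Polymerase II split most widely, and none of its 14 members lay within its reference range, where 3484 of 12253 genes did. A steady gene has a narrow reference range. The median coefficient of variation over the 22 other libraries was 8.78% in polymerase II, against 14.2% over all genes and 13.2% over protein-coding genes. POLR2A, the largest subunit, whose tail recruits processing factors, read 42.3, 137, 209 and 42.9 FPKM at 14, 16, 18 and 20 h. Its values at 16 h and 18 h were the highest of the series, and the next was 58.7 FPKM at 32 h. This was a deviation of 1.96, or 4.06-fold on the FPKM scale. POLR2B, its partner in the active centre, read 89.2, 132, 144 and 90.6 FPKM, a deviation of 0.61.

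POLR2J, which pairs with POLR2C early in assembly of the enzyme, was low, at 33.7, 7.0, 4.58 and 27.0 FPKM. At all other time points it lay between 16.5 and 33.7 FPKM, so 16 h and 18 h stood apart, with a deviation of -2.22. POLR2C deviated by -0.60. The stalk subunits POLR2D and POLR2G, which bind emerging RNA, deviated by -0.37 and -0.94, and POLR2I, a subunit for proofreading, by -0.24. POLR2M, a polymerase II partner that competes with an initiation factor and is no core subunit, deviated by 0.57.

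The 5 subunits that polymerases I, II and III share deviated in both directions. POLR2E read 120, 40.5, 42.7 and 112 FPKM at 14, 16, 18 and 20 h, a deviation of -1.45. POLR2L read 153, 57.0, 59.4 and 141 FPKM, a deviation of -1.32, and POLR2F deviated by -0.58. POLR2H read 129, 169, 165 and 115 FPKM, a deviation of 0.45, and POLR2K deviated by 0.35. All of them lay outside their reference ranges, 3 below and 2 above.

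In polymerase I, 4 of 8 members lay within their reference ranges. POLR1H, the small subunit for RNA cleavage, read 98.9, 37.0, 41.7 and 96.5 FPKM, a deviation of -1.29, and its values at 16 h and 18 h were the lowest of the series. POLR1F, a stalk subunit, read 26.1, 43.8, 50.4 and 26.8 FPKM, the highest deviation of the complex at 0.81. The active-centre subunits POLR1A (0.074) and POLR1B (0.20) and the assembly subunit POLR1C (-0.14) stayed within their ranges.

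In polymerase III, POLR3G read 44.5, 80.5, 93.4 and 40.3 FPKM, a deviation of 1.02, and its paralogue POLR3GL 22.5, 29.3, 29.6 and 21 FPKM, a deviation of 0.42. Both lay above their ranges. Of the active-centre pair, POLR3B read 11.7, 21.7, 24.9 and 10.7 FPKM, a deviation of 0.997 just under the 2-fold line, while POLR3A read 18.7, 17.9, 19.9 and 19.1 FPKM and lay within its range. POLR3K (-0.77) lay below its range.

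In Mediator 3 of 29 members were 2-fold above, near the 8.95% of all genes. They were the backbone and 1 member each of the kinase and middle modules. MED14 read 21, 47.5, 50.3 and 19.7 FPKM, a deviation of 1.23. MED12, which activates the kinase, read 17.8, 33.4, 43.4 and 16.1 FPKM, a deviation of 1.12. MED21 of the middle module, named after its value was seen, read 23.1, 43.2, 46.7 and 20.4 FPKM, a deviation of 1.02. No Mediator member was 2-fold below, where 7.11% of all genes were, and the lowest was MED9 of the middle module at -0.57.

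By module, the median deviation was -0.25 over the 7 head subunits, 0.16 over the 9 middle, -0.022 over the 9 tail and junction subunits and 0.48 over the 3 of the kinase module. With the trend of all genes on transcript GC content removed, these medians were -0.072, 0.00037, 0.15 and 0.029. The removal kept the median over all genes at 0.14. The tail thus came near the all-gene median, and the head, middle and kinase modules lay below it. In the head, MED17 stood at 0.62 and MED22 at -0.25. With the GC trend removed MED22 stood at 0.096, still below the all-gene median. The kinase-module paralogues MED13 and MED13L read 0.48, above its range, and -0.076, within it. MED1 read 31.1, 41.7, 46.8 and 32.5 FPKM, a deviation of 0.46 above its range. The 8 members with the ETS letters in their windows deviated to both sides, from -0.60 in POLR2C to 0.69 in MED15.

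Across members and across all genes, the deviation ran with the base composition of the transcripts, and less closely with their length. Across the 61 members, it had a Pearson's r of -0.38 and a Spearman's rho of -0.44 with the GC content of the longest transcript, against -0.51 and -0.56 across 12148 genes; genes of 1 library pair share its depth and are not replicates. With transcript length, Spearman's rho was 0.35 across members and 0.30 across all genes. The complexes differed. With GC content, rho was -0.095 in polymerase I, -0.25 in polymerase II, -0.50 in polymerase III and -0.45 in Mediator. With length it was 0.33, 0.53, -0.14 and 0.29 in the same order. Among the 21 members of lowest GC content (34.3% to 45.3%), 17 deviated upwards and 13 lay above their range, 1 below. Among the 20 of highest GC content (52.6% to 64.8%), 13 deviated downwards and 12 lay below their range, 6 above. POLR2A (56.1% GC) and MED12 (54.7%) went against this order. With the trend over all genes removed, POLR2A stood at 2.43, MED12 at 1.47, POLR2J at -1.75 and POLR1H at -1.37, while the polymerase II median moved to -0.091 and MED14 (0.94), MED21 (0.60), POLR3G (0.63), POLR2E (-0.92) and POLR2L (-0.76) no longer passed 2-fold. MED15 (1.33) and POLR2H (1.01) then did. The sign relative to 0 turned in 13 of 61 members, among them POLR2I, from -0.24 to 0.41, and POLR2K, from 0.35 to -0.044. The median over all genes stayed at 0.14 with the trend removed. A turned sign is therefore not always a change of side against the trend. What part base composition or length had in the deviations was not tested.

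**Figure D3:**
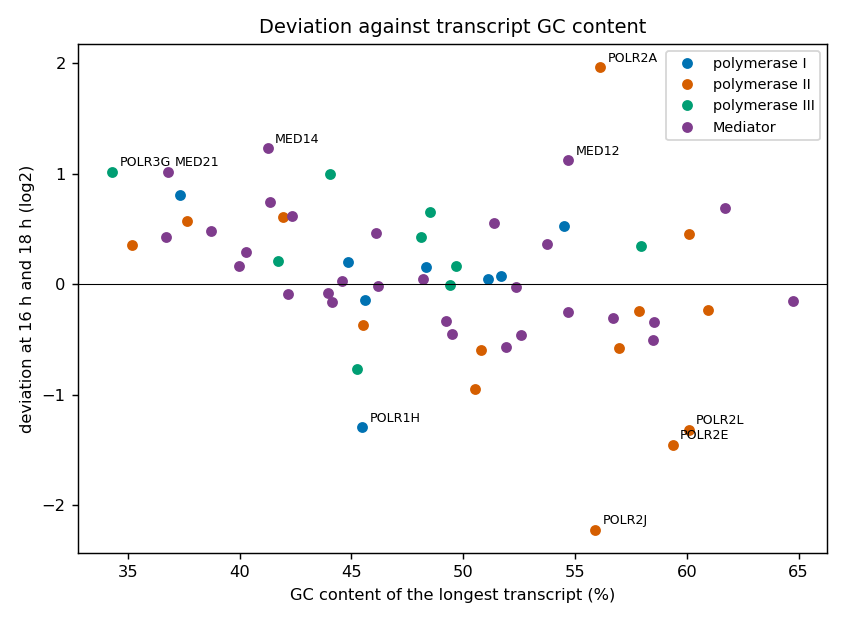
Each point is a member (1 is not shown), with the GC content of its longest GENCODE 29 transcript on the x axis and its deviation at 16 h and 18 h (log2) on the y axis. Points fall from left to right, with POLR2A at 1.96 and 56.1% GC lying above the rest and POLR2J at -2.22 and 55.9% GC below.

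Overlap with other genes limits some of these values, since the strand of the libraries is not given in the sources used here. In GENCODE 29, exons of 16 members overlapped exons of another gene of the table, and all 4 members that were 2-fold below were among them. The overlap was 51 bases for POLR2J with LRWD1, 50 for POLR2E with ARHGAP45, 257 for POLR2L with CD151 and 900 for POLR1H with ZNRD1ASP, all on the opposite strand. LRWD1 deviated by -0.97, ARHGAP45 by -1.66, CD151 by -1.54 and ZNRD1ASP by 0.74. Without the 16, in a comparison added after the data were seen, 4 members were 2-fold above and none below, where 8.96% and 7.09% of all genes without those 16 were. Other genes with such overlaps stayed in that background, and their share of all genes is not given here. The 2 sides are therefore not filtered alike. Of the polymerase II members 7 were left, 4 above 0 and 3 below, where 5 and 9 of all 14 were. Their median was 0.35. The members left out were mostly those that deviated downwards, so a rise of the median follows from the choice. The part of the overlaps in the result was not tested.

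At 32 h most members, like most genes of the table, deviated to the same side as at 16 h and 18 h. The deviation at 32 h was taken from the mean of 30 h and 34 h, so it shares no library with the pair. It had the same sign in 46 of 61 members (75.4%), against 70.4% of all genes, and in 4 of 8 members of polymerase I, 10 of 14 of polymerase II, 9 of 10 of polymerase III and 23 of 29 of Mediator. Across members the values had a Pearson's r of 0.75 and a Spearman's rho of 0.72, and across all genes 0.60 and 0.58. Taken in the same way at 6 h, the sign was the same in 38 of 61 members and 7725 of 12253 genes. Pearson's r was then 0.50 across members and 0.49 across all genes. At 32 h 26 members lay outside the range of 17 other single time points, where 33.8% of all genes did, and at 6 h 15 did, against 21.1%. MED14 read 18.2, 28.9 and 18.6 FPKM at 30, 32 and 34 h, a deviation of 0.62, and POLR2A 38.3, 58.7 and 44.4 FPKM, a deviation of 0.50. POLR1H stood at -0.54, below its range at other single time points, and POLR2J at -0.47, within its range of -0.71 to 0.47.

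Leaving out 16 h and 18 h, the highest level lay between 0 h and 22 h in 42 members and between 24 h and 32 h in 19. These included 8 at 32 h (13.1% of members, against 15.8% of all genes) and 7 at 30 h (11.5% against 6.07%). No member had its highest level at 34 h or later, a limit chosen after the values were seen, where 19.7% of all genes did. The lowest level was at 46 h in 13 members, against 10.8% of all genes, and at 2 h in 9, against 12.7%. The 13 included POLR2A, POLR1C, POLR1G and POLR3G. Relative to each member's mean, the polymerase III median was 0.16 to 0.20 from 6 h to 14 h and -0.24 at 46 h. The polymerase I median was -0.22 at 2 h and -0.21 at 46 h, and that of polymerase II was -0.22 at 46 h, while Mediator stayed between -0.09 and 0.12. Over all genes the median at 46 h was -0.0014. At 2, 6 and 46 h POLR1G read 13.3, 34.5 and 12.3 FPKM, and at 0, 6 and 46 h POLR3B read 7.32, 16.5 and 7.87 FPKM. MED30 was highest at 0 h, at 17.3 FPKM, and lowest at 32 h, at 7.70.

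**Figure D4:**
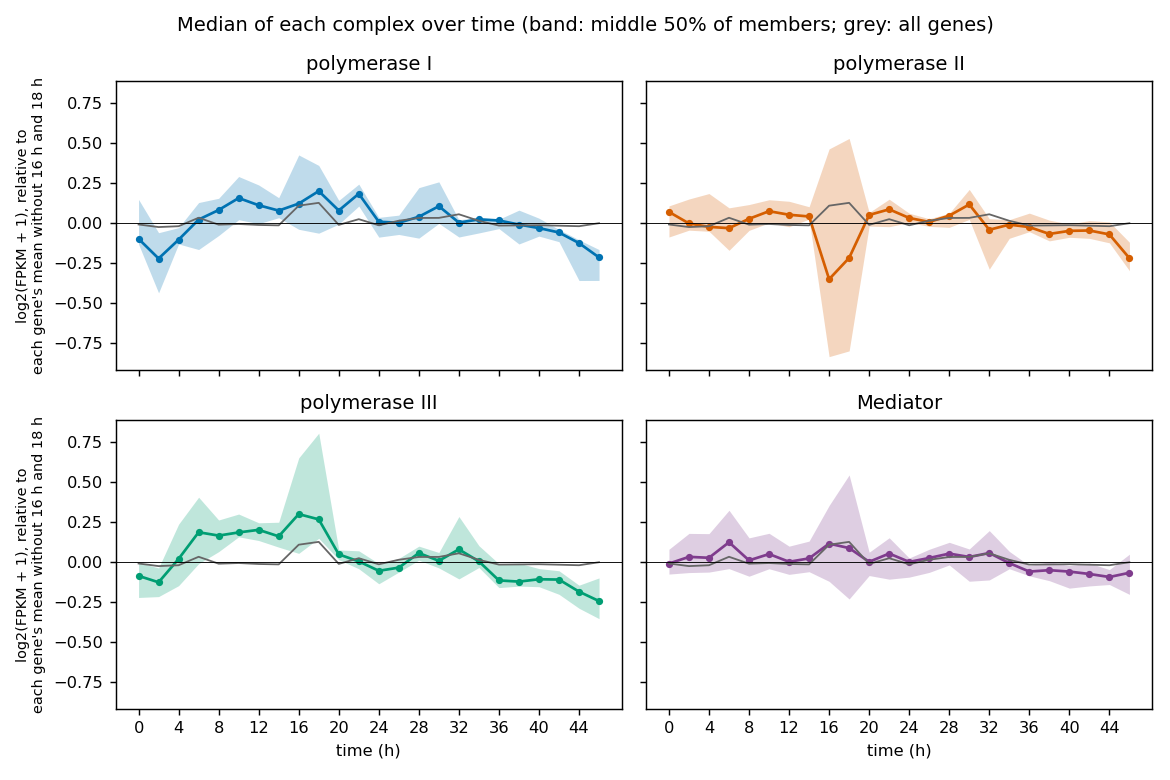
Coloured lines give the median over the members of each complex of log2(FPKM + 1) relative to each member's mean without 16 h and 18 h, with the middle 50% of members as a band. The grey line is the median of all genes. Polymerase III lies at 0.16 to 0.20 from 6 h to 14 h and at -0.24 at 46 h.

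Order in time was scored with the JTK statistic, the largest rank agreement with a 24 h cosine over 12 phases, with a permutation p from 100000 orderings of the time points and Benjamini-Hochberg adjustment over all 12285 genes. At an adjusted permutation p of at most 0.05, 7 members were called, where 11.9% of all genes were. At an unadjusted permutation p of at most 0.05 the count was 23 of 61, against 30.2% of all genes. Neighbouring time points of a series can be alike for reasons other than a cycle, and the orderings do not allow for this.

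MED22 of the head module had the lowest adjusted permutation p, 0.00148, with a best-fitting peak at 6 h and 30 h. It read 15.9 and 14.4 FPKM at 6 h and 30 h, and 10.4 and 8.91 FPKM at 14 h and 20 h, so both high stretches stood above the times between. MED11, also of the head, peaked at 6 h (adjusted permutation p = 0.00693), as did POLR1C (0.0405). The best peak of POLR2L was 8 h (0.0118) and that of POLR3G 14 h (0.0321). For POLR2M it was 18 h (0.0126) and for MED7 0 h (0.0405). The peaks of the 7 were therefore spread over the cycle. Without 16 h and 18 h all 7 were called again and POLR1G, POLR2H, POLR3E and MED29 were added, 11 in all, where 16.2% of all genes were called. Other settings lost some of the 7. MED11 and POLR1C were not called after interpolation of 16 h and 18 h or in the cleaned table of the authors, nor at a period of 20 h or 28 h. MED7 was lost at 20 h, POLR2L and POLR3G at 28 h, and POLR2M at both.

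The second day was compared with the first. The difference was taken as the mean of log2(FPKM + 1) at 24 h later minus the first day over 10 matched hours, without 16 h, 18 h and their partners. Its median was -0.066 over all members, -0.073 in polymerase I, -0.053 in polymerase II, -0.12 in polymerase III and -0.050 in Mediator, against 0.012 over all genes. By the rule of at least 1.5-fold with the same sign at all 10 hours no member was called, where 0.906% of all genes were higher and 0.0571% lower. The hour-by-hour median of polymerase I was negative at 6 of 10 hours, between -0.51 and 0.17, and that of polymerase II at 7 of 10, between -0.23 and 0.20. The median of polymerase III was negative at 8 of 10 hours and lay between -0.31 and 0.058. That of Mediator was negative at 9 of 10 and lay between -0.082 and 0.022.

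Lower at all 10 hours were MED16 of the tail, at a mean of 18.9 FPKM on the first day and 14.8 on the second, a difference of -0.32, and POLR2I, at 44.4 and 37.1 FPKM, a difference of -0.25. They were named after their values were seen, and 2.22% of all genes were lower at all hours. POLR2I was no longer among them under upper-quartile scaling, where MED11 and MED16 were, or with all 12 hours, where MED16 was. No member was higher at all 10 hours, as 4.47% of all genes were. The lowest difference in Mediator was that of MED30, at 11.7 FPKM and 8.76 FPKM (-0.36), and the highest that of MED25, which binds activators, at 27.9 and 31.2 FPKM (0.16). POLR1H was lowest in polymerase I (-0.25) and POLR2J in polymerase II (-0.28), the latter of which turned to 0.11 when all 12 hours were used. The highest differences in the polymerases were 0.14 in POLR1A, 0.076 in POLR2M and 0.012 in POLR3A.

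POLR1A, the largest subunit of polymerase I, was high at 3 time points. At 22, 28 and 30 h it read 55.2, 48.2 and 48.9 FPKM, against 20.5 to 28.8 FPKM at all 21 others. The 3 did not overlap the rest, and 22 h and 28 h are separated by 2 ordinary values, 28.8 at 24 h and 24.8 at 26 h. Against 20, 24, 26 and 34 h the difference was 0.94 in log2 units, and this comparison was chosen after the values were seen. In all, 8 members were higher at 22, 28 and 30 h than at each of those 4 hours, where 13.7% of all genes were. POLR1A alone was at least 1.5-fold higher on average, where 0.849% of all genes were. POLR1C, its partner subunit, stood at 0.43, and POLR1B read 35.0, 33.6 and 30.7 FPKM at the same times, within its usual range.

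**Figure D5:**
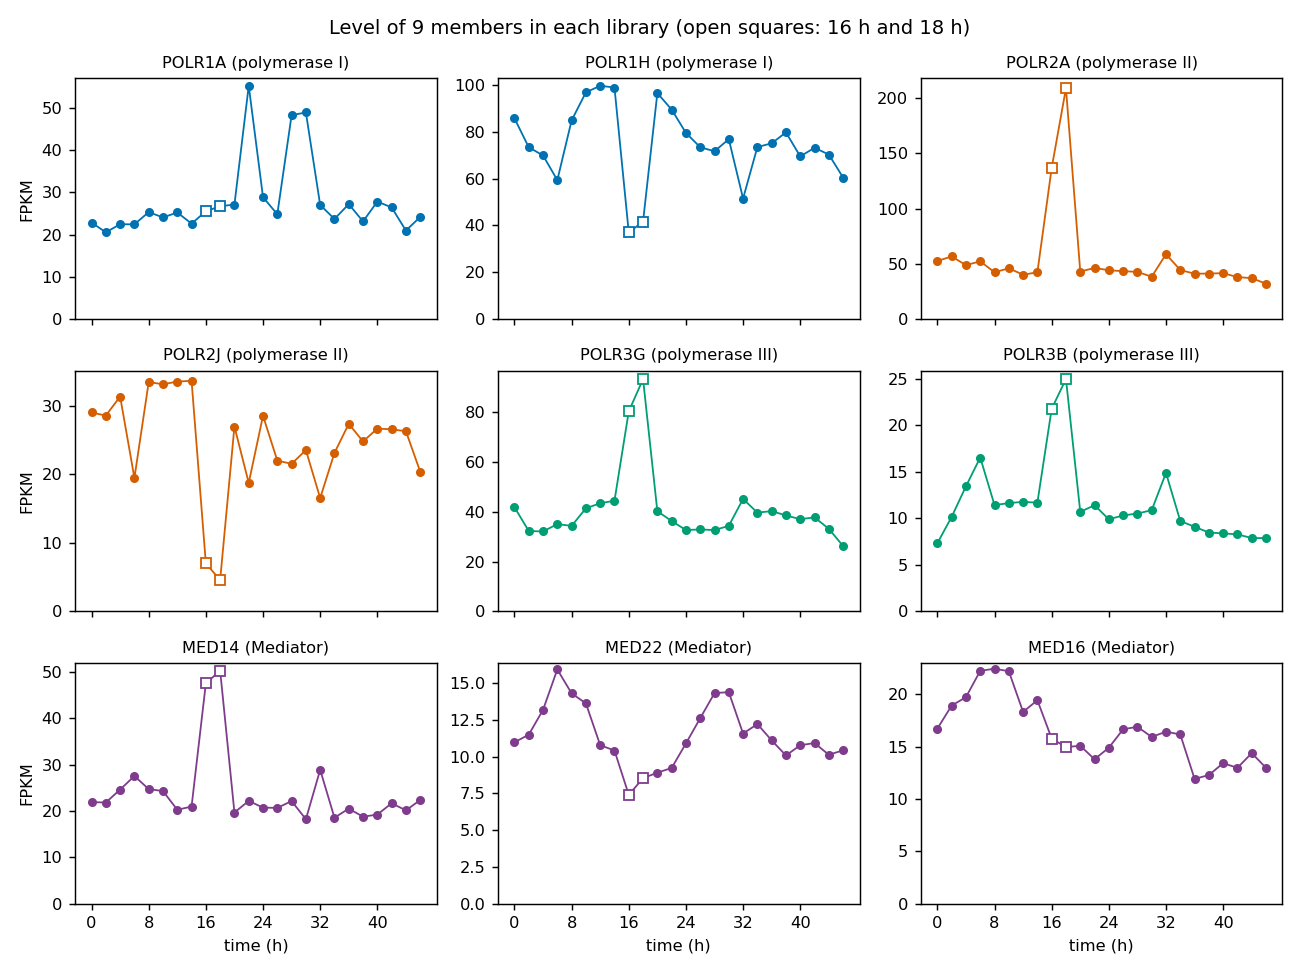
Each panel gives the FPKM of a member in each of the 24 libraries, with open squares at 16 h and 18 h. POLR2A, POLR3G, POLR3B and MED14 are highest and POLR1H and POLR2J lowest at these times, POLR1A is high at 22, 28 and 30 h, and MED22 is high near 6 h and near 30 h.

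Factors that work with these enzymes were described by role. Of 82 genes, all in the table, 62 deviated upwards at 16 h and 18 h and 20 downwards, with a median of 0.26 against 0.14 over all genes and 0.047 over the members. Over all genes 58.1% deviated upwards. By the 2-fold rule 10 were above and 2 below, against the same 8.95% and 7.11% of all genes. Among 33 general factors of polymerase II, which place the enzyme at promoters, the median was 0.50, with 5 above 2-fold and none below, and 0.29 with the GC trend removed. GTF2E2, a subunit of TFIIE, read 28.7, 102, 134 and 28.8 FPKM at 14, 16, 18 and 20 h, a deviation of 1.98. TAF4, of TFIID, read 12.7, 36.5, 41.8 and 11.4 FPKM, a deviation of 1.61.

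The 14 elongation factors had a median of 0.080, with none past 2-fold. The 16 polymerase III factors had a median of 0.21, with 2 above and 1 below: GTF3A, which binds the genes of small ribosomal RNA, at 1.39, SNAPC3 at 1.03 and BRF2 at -1.08. With the GC trend removed their median was 0.43. The 7 polymerase I factors had a median of 0.32, and TAF1C was 2-fold below (-1.13) and none above. With the GC trend removed their median was -0.012, where that of all genes stayed at 0.14. The assembly factors GPN2 (1.65) and RPAP3 (1.5) were above, of 6, and of the 3 mitochondrial genes POLRMT, the mitochondrial polymerase, was at -0.67. CDK8, the Mediator kinase, read 17.4, 42.8, 46.6 and 15.9 FPKM, a deviation of 1.37, and its paralogue CDK19 3.24, 3.19, 3.42 and 4.18 FPKM, a deviation of -0.12. CCNC, their cyclin, deviated by 0.26. By JTK 8 of the 82 were called, including CCNC with a best-fitting peak at 18 h (adjusted permutation p = 0.00148), where 11.9% of all genes were.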

How the data were processed

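RNA sequencing of 24 K562 libraries was analysed, 1 per time point, with no replicates. The authors deposited FPKM values for 12285 genes, made with STAR, Cufflinks and Cuffnorm on GRCh37 per the labels (versions not given in the sources used here), and kept genes with at least 1 FPKM in at least 12 time points. The authors also deposited a cleaned table of scores, Z-scores that had been quantile normalized, which was used only as an alternative. Time points came from the sample labels, and no column of sample values was left unused. Relative values such as FPKM cannot show a change shared by all genes, and the depth per sample, and so the counting precision, is unknown.

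Gene names, types, exons, transcript lengths and GC content were taken from GENCODE 29, which held 12180 of the identifiers, and current symbols from a name table. It is on GRCh38, so no coordinates are given for the members beyond the RefSeq promoter windows. Differences were computed on log2(FPKM + 1), which understates changes of low genes, for the 12253 genes averaging 1 FPKM or more. They are descriptions without a test, set beside the share of all genes that met the same rule. The JTK statistic was computed in Python 3.11.15 with numpy 2.4.6, with 100000 orderings of the time points and Benjamini-Hochberg adjustment over all genes. The GC trend was the running median of 50 bins, and the median over all genes was added back after its removal. Values with the trend removed therefore have an all-gene median of 0.14, not 0. The code was tested on simulated data. Members, gene lists and comparisons were chosen with earlier results of these data known. Named members were the catalytic subunits, the paralogue pairs POLR3G with POLR3GL, MED12 with MED12L and MED13 with MED13L, MED1, MED14, MED17 and MED22, the Mediator kinase partners and, in each complex, the extremes of level, deviation, JTK p and day difference. Other genes are named where a count or a shared role singles them out, after their values were seen. Alternatives covered pseudocount, filter, scaling, GC trend, hours used, JTK period and orderings. The values of 1 member are not reported here by name, though counts and medians include it.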

Additional observations from a re-analysis of the deposited data

How the results depend on the processing

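Deviations at 16 h and 18 h depended on scaling. With libraries centred on their medians, the median was 0.0020 in polymerase I, -0.42 in polymerase II, 0.16 in polymerase III, -0.080 in Mediator and -0.066 over all members, and 3 members were 2-fold above and 5 below, against 5 and 4, where 6.48% and 9.21% of all genes were. With upper-quartile scaling the medians were -0.11, -0.53, 0.055, -0.18 and -0.18, and 1 member was above and 5 below, where 4.73% and 10.6% of all genes were. With the GC trend removed polymerase II stood at -0.091, all members at 0.096 and all genes at 0.14. By the 2-fold rule 4 members were then above and 2 below (7.52% and 2.85% of all genes). At 16 h alone polymerase II was at -0.40, with 2 members above and 4 below (7.28% and 6.33%), and at 18 h alone Mediator was at 0.069, with 6 above and 4 below (10.9% and 8.66%). A pseudocount of 0.1 gave 6 above and 4 below (11% and 10.7%). A minimum mean of 10 FPKM gave polymerase III 0.35. Without the members whose exons overlap a gene of the table, chosen after seeing the data, polymerase II reversed to 0.35, polymerase III was 0.35 and all members 0.17, with 4 above and 0 below, which follows from leaving those members out. At 1.5-fold 12 were above and 8 below. Centring takes 1 constant from each library, so it moved every deviation by the same amount and left the gap between members and all genes unchanged. For upper-quartile scaling and single hours the cause was not tested. Having no filter changed no value for the members. Wider flanks kept 5 above and 4 below, with a median of 0.039 over all members.

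By JTK, 7 members were called. A period of 20 h called 6 (3.22% of all genes), of which 3 were among the 7, with 2 in polymerase I, 1 in II, 2 in III and 1 in Mediator. A period of 28 h called 3 (3.64% of all genes), with 0 in polymerases I, II and III. Leaving out 16 h and 18 h called 11 (16.2%), with 2 in polymerase I and 2 in III. PCHIP interpolation called 8 (17%), with 2 in polymerase III. The cleaned table called 9 (11.6%), with 2 in I and 2 in III. Upper-quartile scaling called 12 (13.5%), with 2 in I and 3 in III. PCHIP and the cleaned table lost MED11 and POLR1C. With 2000000 orderings, chosen after seeing the data, 8 members were called, POLR2F in addition (adjusted permutation p = 0.0494 against 0.0509), and 13% of all genes. MED22 was called under each of these alternatives.

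No member was called in the day comparison under any of the 6 alternatives. With all 12 hours the Mediator median was -0.12, against -0.050, and MED16 alone was lower at all hours. The day comparison paired hours, and no analysis paired by replicate was possible. Every time point had 1 library and all carried replicate number 1, so a replicate block would hold every library at once. With 1 library per time point and no read totals, neither replicate error nor counting error could be set beside a value.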
